A study of Mus musculus with 4 samples.

Results

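Blood plasma proteins are made mainly by hepatocytes of the liver, which secrete albumin, transport proteins, clotting factors and protease inhibitors at high levels. Their mRNAs are therefore common markers of liver RNA, although single genes of this class are also transcribed elsewhere. Transferrin, for example, is made by myelinating glia and Sertoli cells, transthyretin by the choroid plexus, and haptoglobin by adipocytes. The genes described here are 10 of 16472 genes in a table of RNA from mouse skeletal muscle, namely the carriers *Alb*, *Trf* and *Ttr*, the fibrinogen chains *Fga*, *Fgb* and *Fgg*, the scavengers of heme and hemoglobin *Hpx* and *Hp*, and the inhibitors *Ahsg* and *Serpina3k*. They were chosen by name as hepatocyte products with their values in these libraries already known, so all of their levels and differences are given as a description and without a test.

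The study set out to find RNAs located in mitochondria, and here isolated mitochondria were compared with the remaining tissue of wild-type mouse skeletal muscle, with 2 libraries in each group. The group of remaining tissue is labelled as tissue from which mitochondria were removed, while its titles and the study name total muscle, so it is called remaining tissue here by its label only. Both groups share genotype and tissue. The study's methods, written for the heart, treat isolated mitochondria with digitonin and RNase A before RNA isolation. They do not say separately whether muscle was so treated, and any effect of it cannot be told apart from that of the fraction. The labels do not say whether libraries came from separate animals, and any p-value below measures only the spread between these libraries.

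Values are normalized counts, that is, reads per gene divided by a size factor of the library and rounded. In isolated mitochondria 1 read was worth 9.05 normalized counts in replicate 1 and 5.06 in replicate 2, so reads could be recovered. In remaining tissue 1 normalized count stood for an estimated 7.05 reads. Assigned reads numbered 42750209 and 35304721 in isolated mitochondria, against 15704157 and 15301973 (estimated) in remaining tissue. Mitochondrially encoded genes took 95.3% and 94.1% of the reads of isolated mitochondria and 22.3% and 20.5% of those of remaining tissue. Reads of nuclear genes (without 17 nuclear copies of mitochondrial genes) were 100924 and 181152 in isolated mitochondria replicates 1 and 2, and in remaining tissue they came to an estimated 11989717 and 11968760. Muscle genes were abundant in both groups, with *Myh4*, the fast myosin heavy chain, at 130847 and 139440 normalized counts in remaining tissue and at 15166 and 11712 in isolated mitochondria. The myofibre, hepatocyte and other lists used for comparison below were likewise drawn up with results of these data known.

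The 10 genes lie on 8 chromosomes of the mouse build GRCm38. *Fgg*, *Fga* and *Fgb* form a cluster on chromosome 3, where *Fgg* (chr3:83007724-83015049) and *Fga* (chr3:83026076-83033627) are on the plus strand and *Fgb* (chr3:83040141-83049863) is on the minus strand, within 42140 bases. *Alb* lies at chr5:90460897-90476602, *Trf* at chr9:103204001-103230444 and *Hpx* at chr7:105591613-105600137. *Hp* lies at chr8:109575128-109579172, *Ahsg* at chr16:22891277-22899449 and *Serpina3k* at chr12:104338486-104346144. Their merged exons span 1186 bases (*Ttr*) to 3810 bases (*Fgb*), with a median of 2145 against 4995 over the genes tested. GC content of the exons was 42.7% (*Fgg*) to 56.2% (*Hp*), with a median of 49.1% against 49.7% over the genes tested.

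Liver transcription of some plasma protein genes is known to use the factor HNF1 (hepatocyte nuclear factor 1). Its site is made of half-sites that read GTTAAT or, on the other strand, ATTAAC. RefSeq promoter sequences (GRCm38.p6) were examined for 6 of the 10 genes, *Alb*, *Fga*, *Fgb*, *Fgg*, *Hpx* and *Ahsg*. Promoters of the remaining members were not examined, so nothing is stated about sites in them. To set the most abundant member beside the 3 clustered genes, the 150 bases before their RefSeq starts are printed. They run 5′ to 3′ on the strand of the gene, with any half-site match in capitals. The windows are chr5:90460720-90460869 (plus) for *Alb*, chr3:83026003-83026152 (plus) for *Fga*, chr3:83049864-83050013 (minus) for *Fgb* and chr3:83007574-83007723 (plus) for *Fgg*. The RefSeq starts of *Alb* (90460870) and *Fga* (83026153) differ from the gene bounds given above, so part of the *Fga* window lies within the gene as the table bounds it.
Alb: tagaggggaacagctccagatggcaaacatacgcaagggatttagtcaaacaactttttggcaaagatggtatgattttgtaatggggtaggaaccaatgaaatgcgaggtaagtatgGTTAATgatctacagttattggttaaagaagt
Fga: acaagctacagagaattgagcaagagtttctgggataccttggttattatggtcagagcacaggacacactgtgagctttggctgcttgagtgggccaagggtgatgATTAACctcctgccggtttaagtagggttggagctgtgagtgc
Fgb: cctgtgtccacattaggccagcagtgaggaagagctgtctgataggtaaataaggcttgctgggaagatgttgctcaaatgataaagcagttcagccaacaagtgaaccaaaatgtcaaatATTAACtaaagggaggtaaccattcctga
Fgg: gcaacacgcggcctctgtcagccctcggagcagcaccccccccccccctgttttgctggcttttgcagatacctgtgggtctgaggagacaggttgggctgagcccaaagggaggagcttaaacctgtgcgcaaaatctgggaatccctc

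The half-site began 32 bases before the start in *Alb*, 43 in *Fga* and 29 in *Fgb*. It was present in the 250 bases before the start in these 3 of the 6 genes, and in 6.43% of 32851 mouse promoters of the same length. In *Fgg*, *Hpx* and *Ahsg* these letters did not occur in the window. The letters TTNNGNAA, a core to which C/EBP factors bind, were found on either strand in *Alb*, *Fga*, *Fgb*, *Hpx* and *Ahsg*, and in 36.8% of all promoters, with some matches overlapping each other on the 2 strands. Such matches are descriptions of the sequence only.

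All 10 genes were higher in both libraries of isolated mitochondria than in either library of remaining tissue. This was part of what chose them, and 25.5% of the 6916 genes with a mean of at least 20 normalized counts showed the same lack of overlap. In isolated mitochondria all 10 had a mean of at least 20, but in remaining tissue only *Alb* and *Trf* did, so the other 8 entered the table of genes tested through isolated mitochondria alone. The median log2 difference of the 10 genes, isolated mitochondria minus remaining tissue, was 5.26, with a range of 3.0 to 5.74, against a median of -0.44 over all genes tested. Without isolated mitochondria replicate 1 the median of the 10 was 3.92, without replicate 2 it was 6.53, and it was 6.39 and 4.15 without remaining tissue replicates 1 and 2. In bulk samples, more cells or cell remnants of a type and more RNA per cell cannot be told apart.

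Albumin, the main carrier and osmotic protein of plasma, was the most abundant. For *Alb*, replicates 1 and 2 of remaining tissue held 185 and 30 normalized counts, and those of isolated mitochondria held 6986 and 1629, from 772 and 322 reads. Values of 2 replicates stand in this order throughout. The mean in remaining tissue was 107.5 ± 110 (SD, n = 2), that in isolated mitochondria was 4307.5 ± 3788 (SD, n = 2), a log2 difference of 5.47 (SE 1.17). Replicate 1 was the higher one in both groups, 6.17 times replicate 2 in remaining tissue and 4.29 times (95% exact interval from reads 3.76 to 4.90) in isolated mitochondria.

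Transferrin, which carries iron in plasma, was next. *Trf* had 64 and 70 normalized counts in remaining tissue and 2470 and 536 in isolated mitochondria (273 and 106 reads), a log2 difference of 4.08 (SE 0.79). Its libraries of remaining tissue were alike (67 ± 4.24, SD, n = 2), whereas those of isolated mitochondria differed 4.61-fold in the same direction as *Alb*. Transthyretin, a carrier of thyroid hormone and of retinol-binding protein, resembled albumin. *Ttr* (chr18:20665280-20674321) had 14 and 4 normalized counts in remaining tissue and 679 and 96 in isolated mitochondria (75 and 19 reads), with a log2 difference of 4.89 (SE 1.15).

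Fibrinogen is assembled from 3 chains and is cut by thrombin to form the clot. *Fga*, the alpha chain, had 13 and 1 normalized counts in remaining tissue and 489 and 61 in isolated mitochondria (54 and 12 reads). *Fgb*, the beta chain, had 12 and 2 normalized counts in remaining tissue and 688 and 101 in isolated mitochondria (76 and 20 reads). *Fgg*, the gamma chain, had 9 and 1 in remaining tissue and 434 and 71 in isolated mitochondria (48 and 14 reads). In each of the 3 chains replicate 1 was the higher library of its group, and their log2 differences lay close together at 5.04 (*Fga*, SE 1.46), 5.41 (*Fgb*, SE 1.24) and 5.31 (*Fgg*, SE 1.26). Rounding leaves their ratio between libraries of remaining tissue loosely known. For *Fga* it was 13 with rounding bounds of 8.33 to 27.0. Together the 3 chains held an estimated 240 and 28 reads in remaining tissue and 178 and 46 in isolated mitochondria.

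Hemopexin binds free heme, and haptoglobin binds free hemoglobin. *Hpx* had 8 and 2 normalized counts in remaining tissue and 471 and 116 in isolated mitochondria (52 and 23 reads), a log2 difference of 5.50 (SE 0.94). *Hp* had 10 and 13 in remaining tissue and 172 and 56 in isolated mitochondria (19 and 11 reads), a log2 difference of 3.0 (SE 0.64), the lowest of the 10 genes. *Hpx* thus had its higher value in replicate 1 of both groups, whereas *Hp*, like *Trf*, had a slightly higher value in replicate 2 of remaining tissue.

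Of the inhibitors, *Ahsg* codes for fetuin-A, which prevents mineral from precipitating in plasma and inhibits the insulin receptor, and *Serpina3k* codes for a serine protease inhibitor. *Ahsg* had 13 and 2 normalized counts in remaining tissue and 633 and 91 in isolated mitochondria (70 and 18 reads), a log2 difference of 5.22 (SE 1.27). *Serpina3k* had 17 and 5 in remaining tissue and 1194 and 258 in isolated mitochondria (132 and 51 reads), and its log2 difference of 5.74 (SE 0.97) was the highest of the 10. Both had replicate 1 above replicate 2 in either group.

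**Figure D1:**
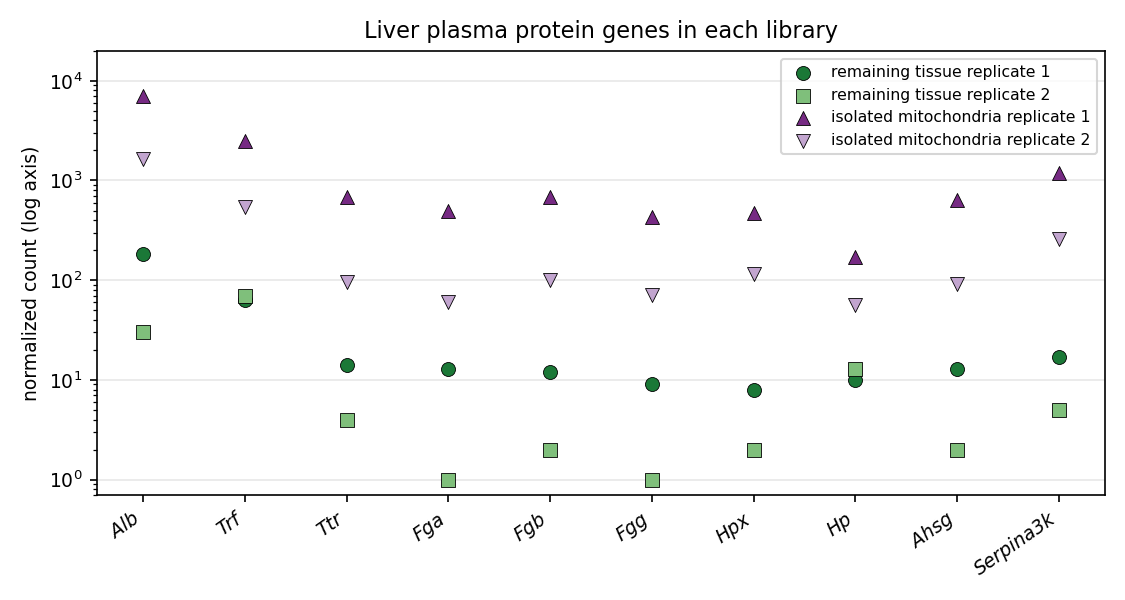
Normalized counts (log axis) of the 10 liver plasma protein genes in the 4 libraries, with 1 point per gene and library. Both libraries of isolated mitochondria lie above both of remaining tissue for each gene, replicate 1 lies above replicate 2 in isolated mitochondria for all 10, and in remaining tissue *Trf* (64 and 70) and *Hp* (10 and 13) have their replicates close together.

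Counting limits differ between these genes. Members of multigene families and overlapping genes are uncertain, because the counting dropped reads shared by several genes or places. In GENCODE M21 *Serpina3k* lies within *Serpina3m* on the same strand (7659 bases) and shares a stretch of 1659 nt at 90.2% identity with it, and *Serpina3m* had 3 and 0 normalized counts in remaining tissue and 244 and 15 in isolated mitochondria. *Trf* is overlapped on the same strand over 26307 bases by *Gm20425*, which shares 1517 nt with it, so part of its reads may be missing from the table. A gene model on the other strand overlaps *Fgg* over 765 bases and *Ahsg* over 3110 bases. *Alb*, *Ttr*, *Fga*, *Fgb* and *Hpx* shared no stretch of at least 50 nt at 90% identity with another transcript.

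Levels of different genes were compared per length, as reads per kilobase of merged exons and per 1000000 nuclear reads. In isolated mitochondria this level was 2013 ± 1773 (SD, n = 2) for *Alb*, 496 ± 451 for *Trf*, 386 ± 353 for *Serpina3k* and 358 ± 381 for *Ttr*. It went on with *Hpx* (214), *Ahsg* (180), *Fgg* (132), *Fgb* (113), *Fga* (99.9) and *Hp* (77.5). This is the order of the means. It held in replicate 1, whereas in replicate 2 *Hp* (37.8) stood above *Fgg* (36.9), *Fgb* (29.0) and *Fga* (22.01). Only the step from *Alb* to *Trf* exceeded the 95% counting intervals in both libraries. The step from *Ttr* to *Hpx* exceeded them in 1 library, and all other neighbours in this order had overlapping intervals in both.

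In remaining tissue the per-length level was 27.0 ± 27.5 (SD, n = 2) for *Alb* and 11.9 ± 0.761 for *Trf*, and *Alb* was the higher of the 2 in replicate 1 (46.4 against 11.3) but the lower in replicate 2 (7.53 against 12.4). *Ttr* (4.47), *Hp* (4.21), *Serpina3k* (3.14), *Ahsg* (2.01) and *Hpx* (1.95) followed. The fibrinogen chains were lowest at 1.39 (*Fgg*), 1.37 (*Fga*) and 1.08 (*Fgb*). *Hp* was lowest in isolated mitochondria by its mean and in replicate 1 only. In remaining tissue it stood above *Ttr* and *Serpina3k* in replicate 2 (4.79 against 1.97 and 1.42) and below both in replicate 1 (3.64 against 6.96 and 4.87).

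As a share of nuclear reads, the 10 genes together took 0.0203% (95% exact binomial interval 0.0195 to 0.0211) and 0.00764% (0.00716 to 0.00816) in the libraries of remaining tissue. In isolated mitochondria they took 1.56% (1.48 to 1.63) and 0.329% (0.303 to 0.356), and the ratio of the group means was 67.5. These intervals hold only the error of counting, because reads that carry no molecular identifier may be copies of 1 molecule, and the difference between replicates of a group was much wider than they are. In remaining tissue the reads are estimates. The intervals given for them here and below leave out the error of rounding and of the estimated factor. As a share of all assigned reads, in which mitochondrial transcripts dominate isolated mitochondria, the order was reversed, with 0.0155% and 0.00598% in remaining tissue and 0.00367% and 0.00169% in isolated mitochondria. The direction of the difference thus applies to the RNA of nuclear genes and not to all RNA of the fraction.

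The make-up of these reads was then compared between libraries. *Alb* gave 53.6% of the reads of the 10 genes in remaining tissue replicate 1 (95% exact interval 51.6 to 55.6), 49.1% in isolated mitochondria replicate 1 (46.6 to 51.6) and 54.0% in isolated mitochondria replicate 2 (49.9 to 58.1), but 23.1% in remaining tissue replicate 2 (20.4 to 25.9). *Trf* gave 18.5%, 17.4% and 17.8% in the same first 3 libraries and 53.9% in remaining tissue replicate 2. The 8 genes other than *Trf* and *Hp* gave 78.6%, 81.4% and 80.4% in the first 3 and 36.1% in remaining tissue replicate 2. The library with the fewest reads of the 8 genes was thus the one that stood apart in make-up, while *Trf* and *Hp* kept their level there.

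**Figure D2:**
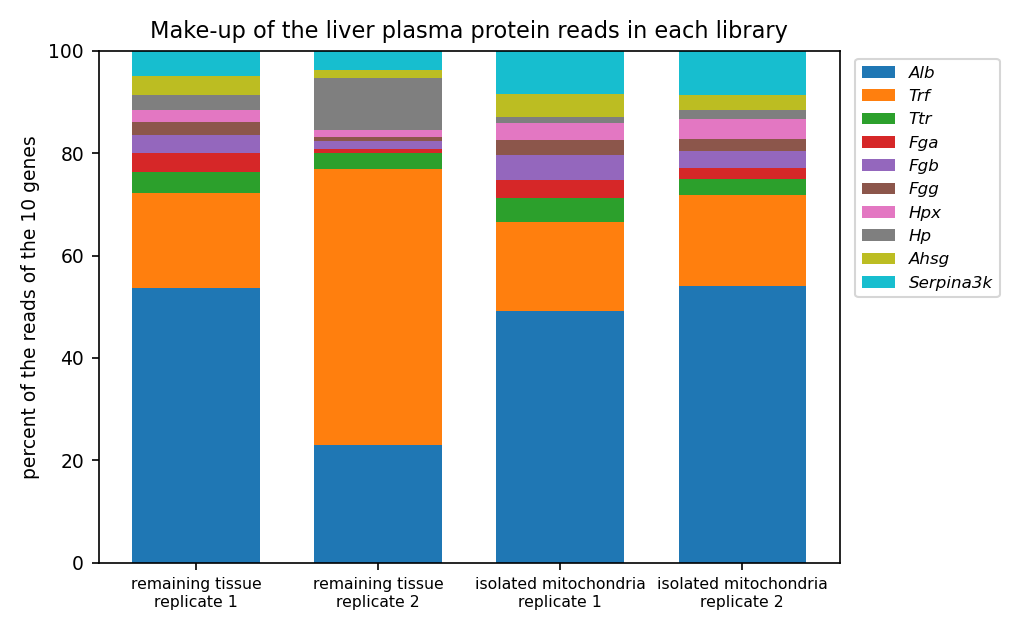
Share of each gene (percent) in the reads of the 10 liver plasma protein genes, with 1 stacked bar per library. *Alb* forms 49.1% to 54.0% of 3 bars and 23.1% of that of remaining tissue replicate 2, in which *Trf* forms 53.9%.

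The replicates of a group also differed in these genes, with replicate 1 the higher library for 8 of 10 in remaining tissue and for all 10 in isolated mitochondria. Over all 6916 genes tested, replicate 1 was the higher for 3643 in remaining tissue and for 3026 in isolated mitochondria. Replicate 1 was at least 4 times replicate 2 in remaining tissue for 6 of the 10 genes, against 1.26% of all genes tested. At the least favourable rounding it held for 5 of 10, without *Hpx*, and for 0.434% of all genes tested. In isolated mitochondria this held for 9 of 10, against 7.82% of all genes tested, with *Hp* at 3.07 (95% exact interval 1.40 to 7.19) as the exception. These ratios were known when the genes were chosen and count as a description. The number that replicates share is not stated to mark a common animal or preparation. Between libraries of the same number, the ratio of isolated mitochondria to remaining tissue was 37.6 (*Fga*) to 70.2 (*Serpina3k*) in replicate 1 for the 8 genes other than *Trf* and *Hp*, and 24.0 (*Ttr*) to 71.0 (*Fgg*) in replicate 2. For *Trf* it was 38.6 and 7.66, and for *Hp* 17.2 and 4.31, so *Trf* lay below the others in replicate 2 only and *Hp* in both.

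Other genes typical of the liver were compared with the 10. Of 48 further genes for liver secreted proteins, 35 were analysed, and their median log2 difference was 5.11. At an adjusted p under 0.05 (limma on log2(normalized count + 1), Benjamini-Hochberg over 6916 genes), 14 of the 35 were higher in isolated mitochondria and 0 lower, while 29 had an unadjusted p under 0.05. Over all genes tested, 7.32% were higher, 9.3% were lower and 37% had an unadjusted p under 0.05 in either direction. Only 3 of the 35 had a mean of at least 20 in remaining tissue, so the others were tested because isolated mitochondria were high and their direction was fixed beforehand, and with a minimum mean of 5 only 2 passed. The count of 14 became 9 without isolated mitochondria replicate 1, 22 without its replicate 2, and 25 without either library of remaining tissue, and the genes named here passed in 5 (*Apob*) to 9 of 13 alternatives. *Serpina1e*, an alpha-1 antitrypsin, had 22 and 3 normalized counts in remaining tissue and 1909 and 319 in isolated mitochondria (log2 difference 6.35, SE 1.27, limma adjusted p = 0.0456). Its close relatives *Serpina1c* and *Serpina1a*, between which reads can be lost or split, had log2 differences of 6.02 and 5.60 (limma adjusted p = 0.0384 and 0.0469). *Apoa2*, of high-density lipoprotein, and *Mug1*, a protease inhibitor of the macroglobulin family, also passed (5.80 and 5.74, limma adjusted p = 0.0425 and 0.0417). *Serpina1b*, *Apoa1*, *Apob*, *Pzp* and *Gc*, for another alpha-1 antitrypsin, 2 apolipoproteins, a macroglobulin and the carrier of vitamin D, did not pass, with log2 differences of 5.90, 5.96, 5.05, 5.75 and 6.05 (limma adjusted p = 0.0508, 0.0531, 0.0784, 0.0518 and 0.0578).

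Hepatocyte enzymes and transcription factors, which are not secreted, had 23 of 25 genes analysed, all with a mean of at least 20. Their median log2 difference was 4.55. Of these, 3 were higher by the same test and 0 lower, with an unadjusted p under 0.05 for 17 (37% of all genes tested). Only 2 of the 23 had a mean of at least 20 in remaining tissue, and the direction of the others was likewise fixed by the filter. Without isolated mitochondria replicate 1 the count was 1, without its replicate 2 it was 11, and without remaining tissue replicates 1 and 2 it was 10 and 11. *Cps1*, the first enzyme of the urea cycle, had 19 and 3 normalized counts in remaining tissue and 941 and 147 in isolated mitochondria (log2 difference 5.38, limma adjusted p = 0.0600). *Cyp2e1*, a cytochrome P450, was higher (log2 difference 3.77, limma adjusted p = 0.0473), as was *Tdo2*, which was named after its values were seen. *Fabp1* (5.41, limma adjusted p = 0.0920) and *Ass1* (4.55, limma adjusted p = 0.0574) did not pass. The summed level of the list was 133 and 91 normalized counts in remaining tissue and 5999 and 1072 in isolated mitochondria. All 23 genes were above 0 in isolated mitochondria replicate 1, and *Hnf4a* and *Otc* were at 0 in replicate 2.

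**Figure D3:**
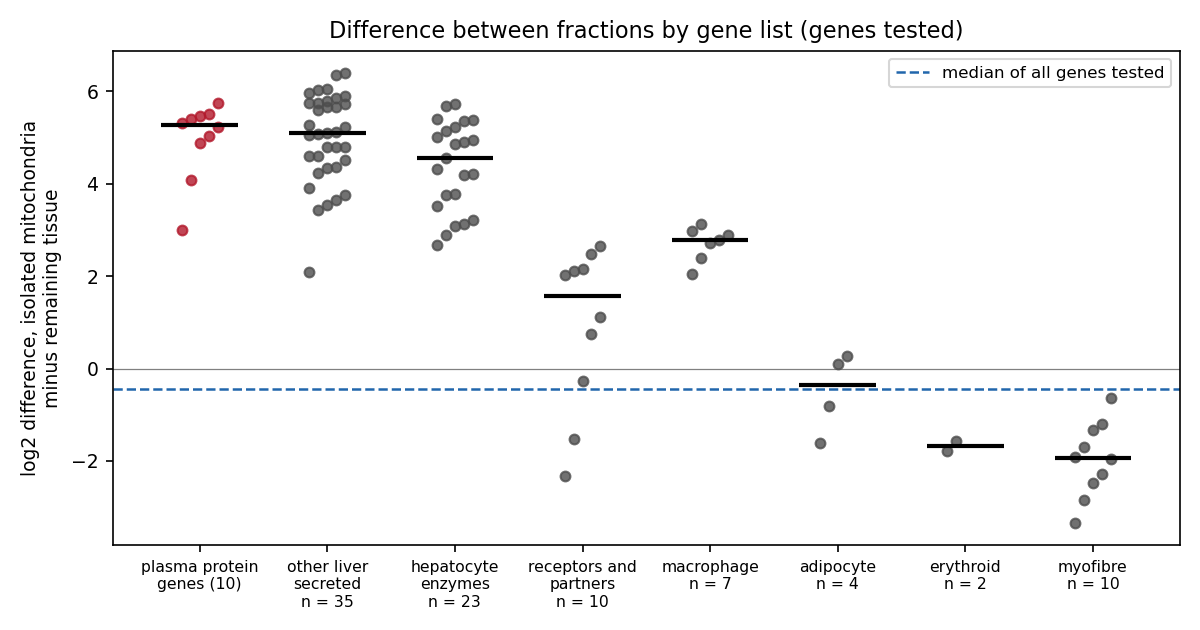
Log2 difference, isolated mitochondria minus remaining tissue, for each tested gene of 8 lists, with the median of the list as a black bar and the median of all 6916 genes tested (-0.44) as a dashed line. The liver lists lie highest (medians 5.26, 5.11 and 4.55), macrophage genes are at 2.78, and adipocyte (-0.35), erythroid (-1.67) and myofibre genes (-1.93) lie below 0.

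Both liver lists also shared the order of the replicates. In isolated mitochondria replicate 1 was above replicate 2 for all 35 secreted and all 23 enzyme genes, and for 3026 of all 6916 genes tested. It was at least 4-fold for 25 and 19 of the listed genes, against 7.82% of all genes tested. In remaining tissue replicate 1 was above for 32 and 20, and for 3643 of all 6916 genes tested. At the least favourable rounding it was at least 4-fold for 12 and 4, with 0.434% as the share over all genes tested. Without that allowance the counts were 20 and 18 (1.26% of all genes tested), of which 6 and 9 genes were at 0 in replicate 2. The genes that did not have replicate 1 higher in remaining tissue were *Rbp4*, *F10* and *Orm1* among secreted and *Cyp2e1*, *Pck1* and *Fah* among enzyme genes. These names, and those of *Vtn* and *Cp*, were picked after their values were seen. *Vtn* had 29 and 24 normalized counts in remaining tissue and *Cp* 22 and 21, and like *Trf* and *Hp* they had lower log2 differences than the list (3.75 and 3.44, limma adjusted p = 0.0231 and 0.0198).

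**Figure D4:**
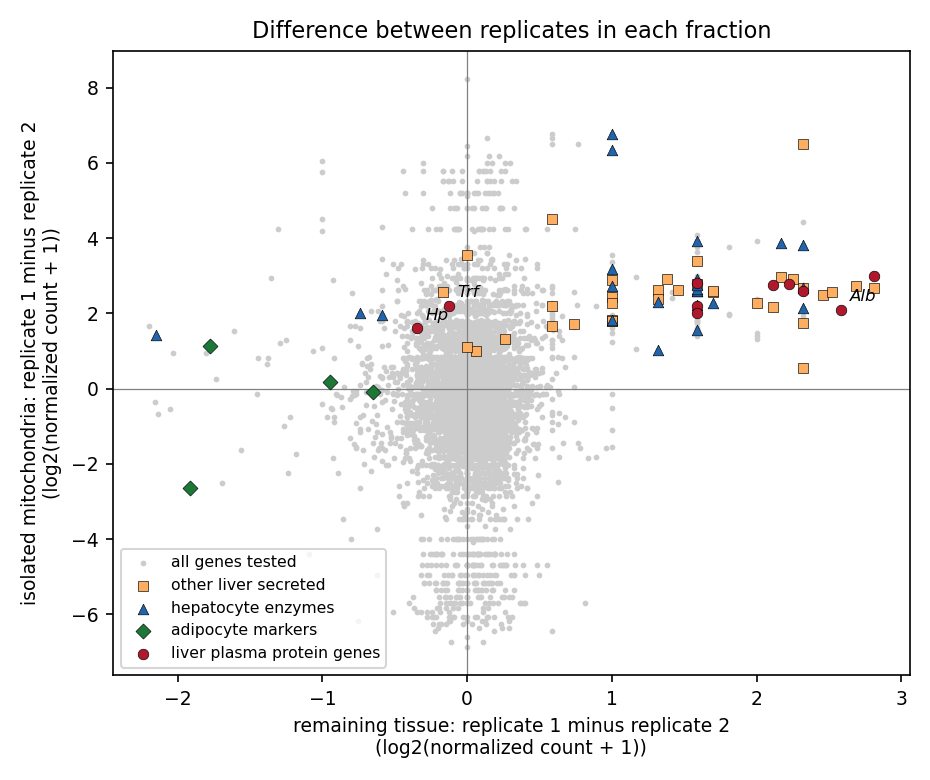
Difference between replicates 1 and 2 on the scale log2(normalized count + 1) in remaining tissue (horizontal) and in isolated mitochondria (vertical), with 1 point per gene. The 10 liver plasma protein genes lie above 0 on the vertical axis (median 2.40), 8 of them also lie to the right of 0, *Trf* and *Hp* lie just left of it, and the tested adipocyte markers lie left of 0 (median -1.36).

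The profile of *Alb* over the 4 libraries was set against all other tested genes by the distance between centred log2(normalized count + 1) values. Among its 5 nearest genes outside the 10 were *Abcc2*, a bile canalicular transporter, *F2* (prothrombin), *Pzp* and *Mug1*, at distances of 0.227, 0.365, 0.399 and 0.429. Of the 50 nearest genes outside the 10, 26 were on the lists of liver secreted proteins or hepatocyte enzymes, whose 58 tested genes are 0.839% of the 6915 ranked. These lists were drawn up with results of these data known. Only 3 of 35 and 2 of 23 of their genes had a mean of at least 20 in remaining tissue. Likeness to *Alb*, itself high in isolated mitochondria, was thus partly built in, and the count is a description only. Among all 6915 genes *Fgg* ranked 6, *Fgb* 10, *Ahsg* 12, *Hpx* 18, *Serpina3k* 21, *Fga* 22 and *Ttr* 43. *Trf* ranked 140 and *Hp* 243, so these were the members least like *Alb*. The distances rest on 4 libraries and on few reads for most genes.

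Markers of other cells that may transcribe single members were examined next, and their part in the results was not tested. Adipocytes transcribe *Hp*. All 8 adipocyte markers were analysed, and their summed level was 227 and 532 normalized counts in remaining tissue and 189 and 282 in isolated mitochondria. None of the 4 that were tested passed (limma, with 0 at an unadjusted p under 0.05), and no marker of the 8 was higher in replicate 1 than in replicate 2 of remaining tissue. *Fabp4*, a fatty acid carrier, had 131 and 206 normalized counts in remaining tissue and 90 and 96 in isolated mitochondria, and *Cfd* (adipsin) had 38 and 146, and 9 and 61. *Retn* and *Lep* were at 0 in both libraries of isolated mitochondria.

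Schwann cells of nerve can transcribe *Trf*. Of 7 Schwann cell markers 5 were analysed, with sums of 88 and 66 normalized counts in remaining tissue and 72 and 75 in isolated mitochondria. *Pmp22*, a myelin protein, had 28 and 25 and then 45 and 40 normalized counts, and *Prx* (periaxin) had 15 and 11 and then 18 and 15.

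The choroid plexus, known for *Ttr*, and neurons were represented by 3 analysed genes of 10. *Kl* had 1 and 1 normalized counts in remaining tissue and was at 0 in isolated mitochondria, and *Stmn2* had 2 and 3 and then 0 and 5. *Rbfox3* was at 0 in remaining tissue and at 471 and 648 in isolated mitochondria (52 and 128 reads, limma adjusted p = 0.00362), and unlike the liver genes it was higher in replicate 2. It was the only gene of this list that was tested. *Rbfox3* passed the minimum mean through isolated mitochondria alone, so its direction was fixed beforehand. *Hp* is also found in neutrophils. Of a joint list of 10 markers of neutrophils and monocytes, 2 were analysed, *Cd14* (2 and 2, then 18 and 25) and *Csf3r* (2 and 1, then 0 and 5). Markers of the exocrine pancreas were not analysed here.

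Blood carries hemoglobin, the ligand of haptoglobin, and 5 of 6 erythroid genes were analysed. Their sums were 166 and 177 normalized counts in remaining tissue and 108 and 40 in isolated mitochondria, with *Hba-a1* at 57 and 61 and then 36 and 10, and *Hba-a2* at 54 and 58 and then 45 and 5. Neither of the 2 tested passed (limma, with 0 at an unadjusted p under 0.05), and these nearly identical genes cannot be told apart with certainty. Macrophage markers, by contrast, were higher in isolated mitochondria for 6 of 7 tested genes (7.32% of all genes), 3 of which had a mean of at least 20 in remaining tissue, among them *Lyz2* (46 and 57, then 217 and 339, log2 difference 2.38, limma adjusted p = 0.0229) and *Mrc1* (28 and 34, then 217 and 202, 2.72, limma adjusted p = 0.0123). The summed macrophage level was 137 and 167 in remaining tissue and 903 and 1158 in isolated mitochondria, and replicate 2 had the larger sum in both groups, unlike the liver lists. Of 10 myofibre genes 9 were lower (9.3% of all genes), including *Myh4* and *Atp2a1* (log2 difference -3.34 and -2.84, limma adjusted p = 0.00840 and 0.00780).

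Receptors and partners of the plasma proteins had 13 of 15 genes analysed and 10 tested, of which 3 were higher and 1 lower in isolated mitochondria (7.32% and 9.3% of all genes tested). *Tfrc*, the receptor that takes up transferrin, had 166 and 144 normalized counts in remaining tissue and 36 and 25 in isolated mitochondria (log2 difference -2.33, SE 0.30, limma adjusted p = 0.0222), opposite to *Trf*. *Cd163*, the receptor for complexes of haptoglobin and hemoglobin on macrophages, had 18 and 22 and then 81 and 106 (2.16, limma adjusted p = 0.0258). *Lrp1*, which takes up hemopexin with its heme, had 393 and 410 and then 2154 and 2347 (2.48, SE 0.16, limma adjusted p = 0.00780). *Plau*, the urokinase that activates the enzyme dissolving fibrin, had 36 and 37 and then 271 and 202 (2.65, limma adjusted p = 0.0144). *Insr*, the insulin receptor, and *F13a1*, the subunit of factor XIII that crosslinks fibrin, did not pass (-1.52 and 2.03, limma adjusted p = 0.0580 and 0.0568). The replicates of these receptors and partners were close in remaining tissue, with a median log2 difference of -0.01 between replicates 1 and 2, against 1.85 for the 10 plasma protein genes.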

How the data were processed

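RNA of skeletal muscle was sequenced in 4 libraries, grouped by their labels. The authors trimmed reads (Trimmomatic 0.39), aligned them to GRCm38 (STAR 2.7.10a), counted reads per gene (featureCounts 2.0.2) without reads shared by several genes or places, and normalized with DESeq2 1.30.1. Versions are those of the submitters' processing notes, and the paper's methods give other versions of STAR, the counting tool and DESeq2. The strand setting of the counting is not given in the sources used here. The deposited values are a signal, gene counts divided by a size factor by the authors and rounded. Low values (under 2000) in isolated mitochondria were whole multiples of 1 read in 100% (replicate 1) and 99.98% (replicate 2) of values, to within 0.5 normalized counts. Reads in remaining tissue were estimated with 1 factor for both libraries, whose separate factors are not known, and rounding adds up to 3.52 reads. RNA fragmentation time was adjusted for mitochondrial samples, so its effect and that of the fraction cannot be told apart.

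Genes with a mean of at least 20 (6916) were fitted with limma 3.58.1 (lmFit, eBayes with trend, R 4.3.3) on log2(normalized count + 1), a scale that understates differences of low genes, with Benjamini-Hochberg adjustment and a threshold of 0.05, and SEs are from this fit. An exact permutation test cannot give a p below 0.333 with 2 libraries against 2, so none was run. Recovered reads were tested with edgeR 4.0.16 (quasi-likelihood) and DESeq2 1.42.0 as alternatives. The main limma fit and the edgeR fit were run on simulated data, whereas the DESeq2 fit and the other settings were not. Simulated replicates of a group had equal expected levels, unlike those of most genes described here, so no conclusion is drawn from that run. Intervals are exact (Clopper-Pearson or Poisson) at 95%, and for remaining tissue they treat estimated reads as counts. Annotation was GENCODE M21, which held 16457 of the 16472 genes. Similar transcripts were searched with BLAST 2.17.0.

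The 10 genes and all lists were chosen with earlier results of these data known. Named genes are the 10, the 10 most abundant of the other liver secreted genes, the 5 most abundant hepatocyte and partner genes, the 2 most abundant of each cell type list and the 5 genes nearest to *Alb*, and other names (*Tdo2*, *Hnf4a*, *Otc*, *Rbp4*, *F10*, *Orm1*, *Pck1*, *Fah*, *Vtn*, *Cp*, *Retn*, *Lep*, *Kl*, *Cd163*, and the genes overlapping members) were chosen after their values were seen. Some results of these lists are not reported here.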

Additional observations from a re-analysis of the deposited data

How the results depend on the processing

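The 10 plasma protein genes kept a positive log2 difference under every alternative tried except scaling to the total of all genes, which moved the median of all genes to -6.90. Under it the median of the 10 was -1.29, with *Alb* at -1.40, *Trf* -2.79, *Ttr* -1.76, *Fga* -1.28, *Fgb* -1.12, *Fgg* -1.002, *Hpx* -1.004, *Hp* -3.65, *Ahsg* -1.31 and *Serpina3k* -0.98. Leaving out 1 library at a time gave medians of 3.92 to 6.53, and their share in isolated mitochondria was 0.943% of nuclear reads (0.329% and 1.56% with 1 library) and 0.00268% of all reads.

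Counts of genes called depended on the setting. Of all genes, 506 were higher and 643 lower, which became 283 and 399 with a minimum mean of 5, 1107 and 183 when scaled to nuclear genes, and 38 and 6694 when scaled to all genes. Without a filter 3026 were lower, and edgeR and DESeq2 gave 1106 and 1404 higher. Of other liver secreted genes, 14 were higher, against 4 without a filter, 2 with a minimum mean of 5, 23 with nuclear scaling, 30 with edgeR and 34 with DESeq2, and scaling to all genes gave 0 higher and 4 lower. Of hepatocyte enzymes 3 were higher, against 1, 0, 8, 14 and 20 under the same settings, and scaling to all genes gave 0 higher and 6 lower. Leaving out 1 library gave 296 to 1724 genes higher, 176 to 3198 lower, 9 to 25 other liver secreted genes higher and 1 to 11 hepatocyte enzymes higher, with 0 lower in both lists, in fits that assume that a lone library varies like the other group.

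Replicate numbers are shared by the labels only, and differences between replicates correlated by 0.141 between groups over the genes tested. With the replicate number as a block, 630 genes were higher and 1144 lower, with 24 other liver secreted genes and 11 hepatocyte enzymes higher. Precision is limited by depth, with a median of 5 and 10 reads per tested gene in isolated mitochondria, and by rounding in remaining tissue. Causes of these changes were not tested, beyond the fewer or more genes and libraries that a setting uses.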
